A study of Solanum lycopersicum with 12 samples.

Results

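The ACC oxidases of tomato were followed in the aerial parts of 3-week-old plants on the Affymetrix Tomato Genome Array, through 6 of the 10038 tomato probe sets. The 6 are all probe sets annotated ACO4 (1 probe set), ACO5 (1) or ACO6 (3), plus a probe set that carries no gene symbol in the annotation and that the study's tables describe as an ACC oxidase (called here the unannotated oxidase). The ACO6 probe sets are called the first, the second and the third in the order of their identifiers on the array. Other genes of the family were not analysed here. All 5 annotated members were matched to RefSeq by gene ID.

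The 12 arrays fall into 4 groups of 3: plants from untreated seeds (control) and plants whose seeds had been coated with spores of the fungus Trichoderma harzianum, either the wild-type strain T34 or 1 of its transformants amdS6 and amdS122. Both transformants carry the acetamidase gene amdS of Aspergillus nidulans behind the gpdA promoter, and each is a single isolate. By the paper's Southern blot, amdS6 holds a single copy of the inserted gene and amdS122 holds more. All plants were tomato of the cultivar Marmande, grown in autoclaved soil in a greenhouse, and each array holds RNA of 5 pooled plants, so that differences between plants within a pool were averaged out. In bulk tissue of this kind, fewer cells of a type and less RNA per cell cannot be told apart.

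ACC oxidase carries out the last step of ethylene synthesis in plants. SAM synthetase makes S-adenosylmethionine, ACC synthase turns it into 1-aminocyclopropane-1-carboxylate (ACC), often the limiting step, and ACC oxidase converts ACC to ethylene in the presence of oxygen, iron and ascorbate. The oxidases form a small gene family whose members are known for different patterns in leaves, flowers, wounded tissue and ripening fruit. Ethylene itself acts in ripening, senescence and in the responses of leaves to wounding, pathogens and root microbes.

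Array medians lay between 7.80 and 7.87 on the log2 scale, and arrays of a group correlated at 0.99757 or above, arrays of different groups at 0.9862 or above. All 7 leaf marker probe sets lay above every reporter probe set (probe sets for reporter genes with no tomato target), at group means of 14.13 (control), 14.13 (T34), 14.14 (amdS6) and 14.16 (amdS122). None of 4 shoot meristem markers did so, 3 of 7 ripening markers did, and the ripening list averaged 6.53 to 6.72 over the groups. Of 3 root markers, 2 lay above the reporters, and that list averaged 6.12 to 6.49, highest with T34. The high T34 mean came from FRO1, at 8.36 in control and 9.06 with T34. LKT1 (6.01 in both) and PT2 (4.57 in control, 4.40 with T34) did not rise. The 3′ minus 5′ log2 signal of the control transcripts of tomato, a sign of RNA quality, moved with the groups: 3.37 ± 0.072 (SD, n = 3) in control, 3.23 ± 0.047 with T34, 3.06 ± 0.064 with amdS6 and 2.85 ± 0.13 with amdS122. Spiked hybridisation controls averaged 10.8, 10.7, 10.4 and 10.7 in the same order, lowest with amdS6. The part of these values in the results below was not tested beyond the fits that are given with them.

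**Figure D1:**
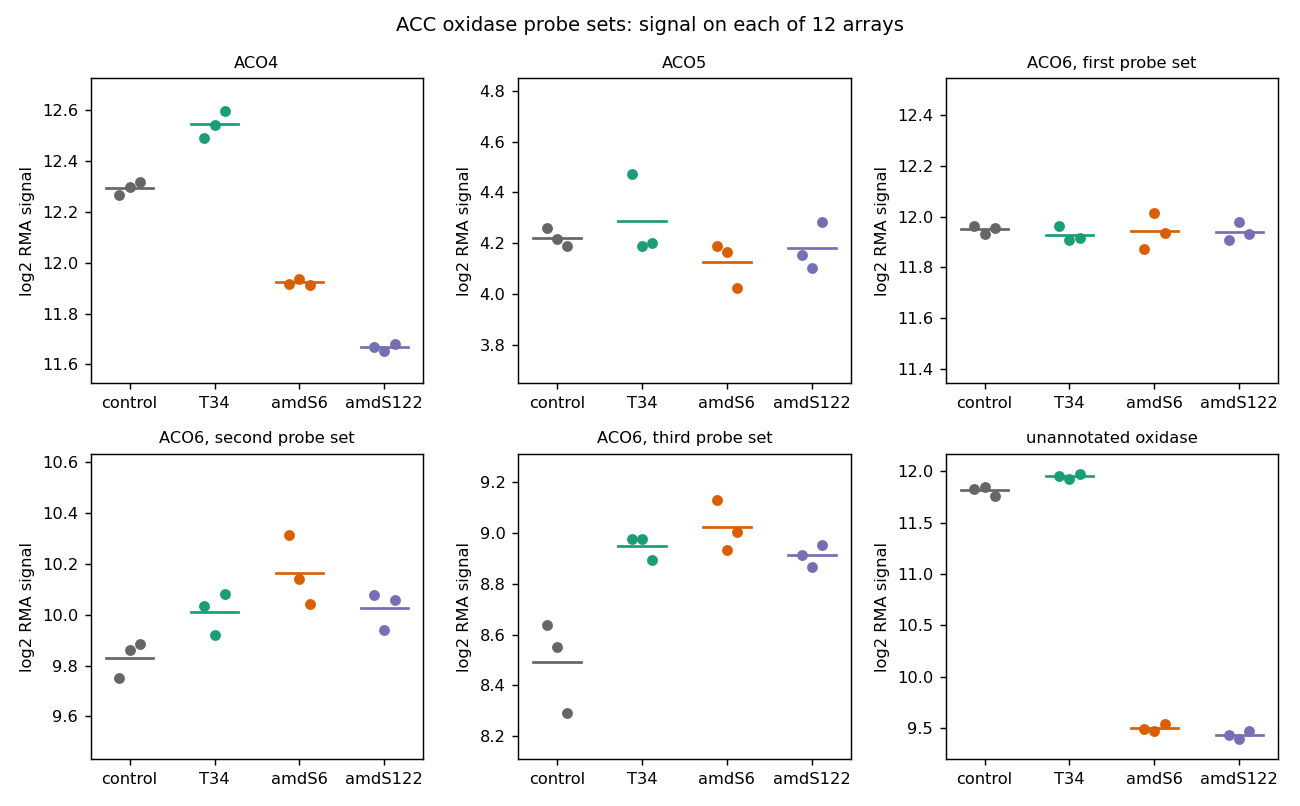
Log2 RMA signal of each ACC oxidase probe set on the 12 arrays, by group (3 arrays each). Each point is an array, and each panel has a y axis of its own centre. ACO4 and the unannotated oxidase separate all 4 groups, as 527 of all probe sets (5.25%) did. The unannotated oxidase was chosen for its change with the transformants on these same arrays. The first ACO6 probe set and ACO5 overlap in most pairs of groups, and the other 2 ACO6 probe sets are lowest in control.

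ACO4 differed among all 4 groups, highest with T34 and lowest with amdS122. ACO4 is best known, beside ACO1, from ripening fruit. Its log2 signals in the control arrays were 12.27, 12.30 and 12.32. With T34 they were 12.49, 12.54 and 12.60. With amdS6 they were 11.92, 11.94 and 11.91, and with amdS122 11.67, 11.65 and 11.68. No pair of groups overlapped, as held for 527 of all probe sets (5.25%). Relative to control, ACO4 rose 1.19-fold with T34 (log2 difference 0.25, 95% interval 0.16 to 0.34, limma adjusted p = 0.00295). It fell 1.29-fold with amdS6 (log2 difference -0.37, adjusted p = 1.54e-05) and 1.54-fold with amdS122 (-0.63, adjusted p = 1.4e-07), each with an SE of 0.0392. Between the transformants, ACO4 was 1.19-fold lower with amdS122 than with amdS6 (-0.26, adjusted p = 0.000409). Against T34 the differences were -0.62 with amdS6 and -0.88 with amdS122 (adjusted p = 1.72e-07 and 5.61e-09). Of the 10038 probe sets, 334 rose more than ACO4 with T34, and 619 and 383 fell more with amdS6 and amdS122. Scaled on the hybridisation spikes, the fall with amdS6 came to -0.05 (adjusted p = 0.772) and the rise with T34 to 0.33 (adjusted p = 0.501), while a fit that held the 3′ minus 5′ signal as covariate gave 0.24, -0.39 and -0.66 for T34, amdS6 and amdS122, all past the threshold.

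The unannotated oxidase had the same order of groups in its means with far larger falls. The study's tables hold it because it had changed at least 2-fold with both transformants on these same arrays, so its levels with the transformants are given as a description, with no test. The control arrays read 11.83, 11.85 and 11.76, and the T34 arrays 11.95, 11.93 and 11.97. The amdS6 arrays read 9.49, 9.48 and 9.54, and the amdS122 arrays 9.44, 9.40 and 9.47. All 6 arrays of the transformants lay more than 2 log2 units below all 6 others. The mean was 4.96-fold lower with amdS6 (log2 difference -2.31) and 5.20-fold lower with amdS122 (-2.38) than in control, and -2.45 and -2.51 log2 units from T34. Only 26 of the 10038 probe sets fell more with amdS6 and 31 with amdS122. These differences were -1.99 and -2.35 when scaled on the spikes and -2.28 and -2.32 with the 3′ minus 5′ covariate. The other 2 comparisons were not part of that 2-fold limit and were tested. The study's own test ran over all 4 groups and so used these arrays too. The p-values below are therefore not independent of the choice. T34 was 1.10-fold above control (log2 difference 0.14, limma adjusted p = 0.0759), but without any 1 of the 6 control and T34 arrays the adjusted p was 0.111 to 0.197, so the call rests on all of them. The difference of amdS122 from amdS6 was -0.07 (95% interval -0.16 to 0.02, adjusted p = 0.244) and did not pass. The arrays of the 2 groups did not overlap, and the share of all probe sets for which this held was not counted. Scaled on the spikes the difference was -0.36 and passed (adjusted p = 0.0321).

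The 3 probe sets annotated ACO6 did not behave alike. The third read 8.64, 8.55 and 8.29 in control against 8.98, 8.97 and 8.89 with T34, 9.13, 8.93 and 9.00 with amdS6, and 8.91, 8.87 and 8.95 with amdS122. Every array of every strain lay above every control array, a separation whose share among all probe sets was not counted. It rose 1.37-fold with T34 (log2 difference 0.45, adjusted p = 0.00576), 1.44-fold with amdS6 (0.53, adjusted p = 0.000252) and 1.34-fold with amdS122 (0.42, adjusted p = 0.00109), with an SE of 0.0804. With T34, 66 of all probe sets rose more. In the fit of the deposited values the strains were not shown to differ from each other: amdS6 was 0.08 above T34 (adjusted p = 0.507), amdS122 was -0.04 from T34 (adjusted p = 0.756), and amdS122 was -0.11 from amdS6 (95% interval -0.29 to 0.06, adjusted p = 0.327). Scaled on the spikes, amdS6 stood 0.86 above control, 0.32 above T34 (adjusted p = 0.0603), and amdS122 was -0.41 from amdS6 (adjusted p = 0.0165). With the 3′ minus 5′ covariate the amdS122 difference from control was 0.59 and no longer passed (adjusted p = 0.144).

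The second ACO6 probe set shared the lower control level, with smaller differences. It read 9.75, 9.86 and 9.88 in control, 10.03, 9.92 and 10.08 with T34, 10.31, 10.14 and 10.04 with amdS6, and 10.08, 9.94 and 10.06 with amdS122. Control lay below each strain while the strains overlapped, and the share of all probe sets with such a separation was not counted. The second ACO6 probe set changed less than the third. It rose 1.26-fold with amdS6 (log2 difference 0.33, SE 0.0726, adjusted p = 0.00288) and 1.14-fold with amdS122 (0.19, adjusted p = 0.0466). With T34 the difference was 0.18 and did not pass (adjusted p = 0.181). The amdS122 call was lost without control replicate 1, amdS122 replicate 1 or amdS122 replicate 3 (adjusted p = 0.153, 0.13 and 0.121), and with the 3′ minus 5′ covariate neither transformant passed, at 0.22 for amdS6 (adjusted p = 0.303) and -0.002 for amdS122 (adjusted p = 0.997).

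The first ACO6 probe set was level in all groups. Its arrays read 11.96, 11.93 and 11.96 in control, 11.96, 11.91 and 11.92 with T34, 11.87, 12.02 and 11.94 with amdS6, and 11.91, 11.98 and 11.93 with amdS122, overlapping in every pair of groups. The differences from control were -0.02 with T34 (95% interval -0.12 to 0.08, adjusted p = 0.845), -0.01 with amdS6 (adjusted p = 0.892) and -0.01 with amdS122 (adjusted p = 0.88). Scaled on the spikes, the amdS6 difference turned to 0.32 (adjusted p = 0.0449). Which of the 3 probe sets stands for the ACO6 transcript was not settled here, and the changes of ACO6 are therefore uncertain.

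Since the first ACO6 probe set was so level, the others were also read as differences from it on the same array, a reference chosen after its values were seen. ACO4 lay 0.34 ± 0.035 (SD, n = 3) log2 units above it in control, 0.61 ± 0.079 with T34, -0.02 ± 0.062 with amdS6 and -0.27 ± 0.048 with amdS122. For the unannotated oxidase the distance went from -0.14 ± 0.054 in control and 0.02 ± 0.035 with T34 to -2.44 ± 0.086 with amdS6 and -2.51 ± 0.069 with amdS122. For the third ACO6 probe set the distance was -3.46 ± 0.18 in control and -2.98 ± 0.046, -2.92 ± 0.17 and -3.03 ± 0.075 with T34, amdS6 and amdS122. A scaling of whole arrays leaves such distances as they are. Their sizes compare the change of the same pair of probe sets across groups and not the amounts of the transcripts.

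ACO5 lay near the background of the array. It read 4.26, 4.22 and 4.19 in control, 4.47, 4.19 and 4.20 with T34, 4.19, 4.17 and 4.02 with amdS6, and 4.15, 4.10 and 4.28 with amdS122. Of 63 reporter probe sets, whose median was 4.14, 28 lay above it. No strain passed against control (adjusted p = 0.703, 0.349 and 0.698 for T34, amdS6 and amdS122), and a change was not detectable at this level of signal.

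**Figure D2:**
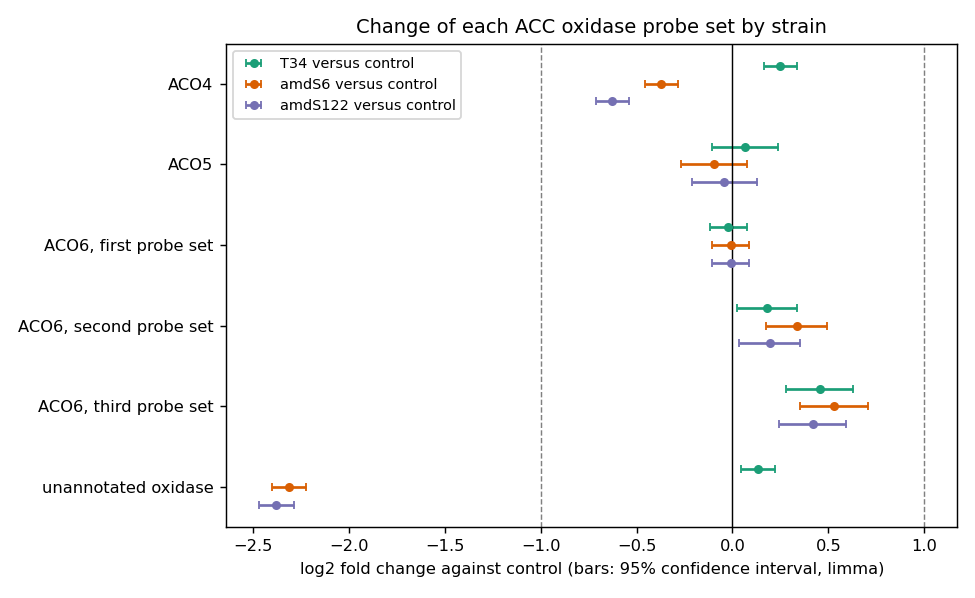
Log2 fold change of each ACC oxidase probe set against control for T34, amdS6 and amdS122. Points are estimates from limma over 3 arrays per group, bars are 95% confidence intervals, and the dashed lines mark a 2-fold change. The unannotated oxidase, at -2.31 and -2.38 with the transformants, is the only member past a dashed line, and was chosen for that change on these arrays.

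Counted over the family, 3 of the 6 probe sets were higher than control with T34 and none lower, where 5.72% of all probe sets were called higher and 4.17% lower. The 3 were ACO4, the third ACO6 probe set and the unannotated oxidase, the last of which was lost without any 1 of the compared arrays, leaving 2. The T34 and control arrays were also among those on which the unannotated oxidase was chosen. No member passed 2-fold with T34, and 0.0299% of all probe sets were lower by that limit. With amdS6, 2 members were higher (2 ACO6 probe sets) against 29% of all, and 2 were lower (ACO4 and the unannotated oxidase) against 20.9%. With amdS122 the same probe sets made up the 2 higher and 2 lower, against 30% and 22% of all. These counts are not far from the shares of the whole array, and the fall of the unannotated oxidase was part of its choice. It was also the 1 member past 2-fold in each, against 1.33% (amdS6) and 1.7% (amdS122) of all probe sets lower by that limit. Against T34, ACO4 was lower with amdS6, as were 18.7% of all probe sets, and with amdS122, as were 20.7%. It was also lower with amdS122 than with amdS6 (18.7% of all). The unannotated oxidase is not counted against T34, since its fall with the transformants brought it into the family. By the moderated F test over the 4 groups, 3 of the 5 annotated probe sets differed (ACO4 and the second and the third of ACO6), against 65.5% of all probe sets. The comparisons with control share the same 3 control arrays.

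The medians of the family were 0.16 with T34, -0.05 with amdS6 and -0.03 with amdS122, beside medians over all probe sets of -0.003, 0.01 and 0.02. The family medians include the unannotated oxidase, which was chosen on these arrays, so they are not read as a result about the family. ACO4 was higher than control with T34 and lower with both transformants, a combination met by 88 of the 10038 probe sets (0.877%). The unannotated oxidase is among the 88, but its falls were part of its choice and its T34 call rests on every compared array. The pooled SD within groups was 0.0314 for ACO4 and 0.0352 for the unannotated oxidase, against a median of 0.0792 over all probe sets, whereas ACO5 and the third ACO6 probe set had 0.105 and 0.109.

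**Figure D3:**
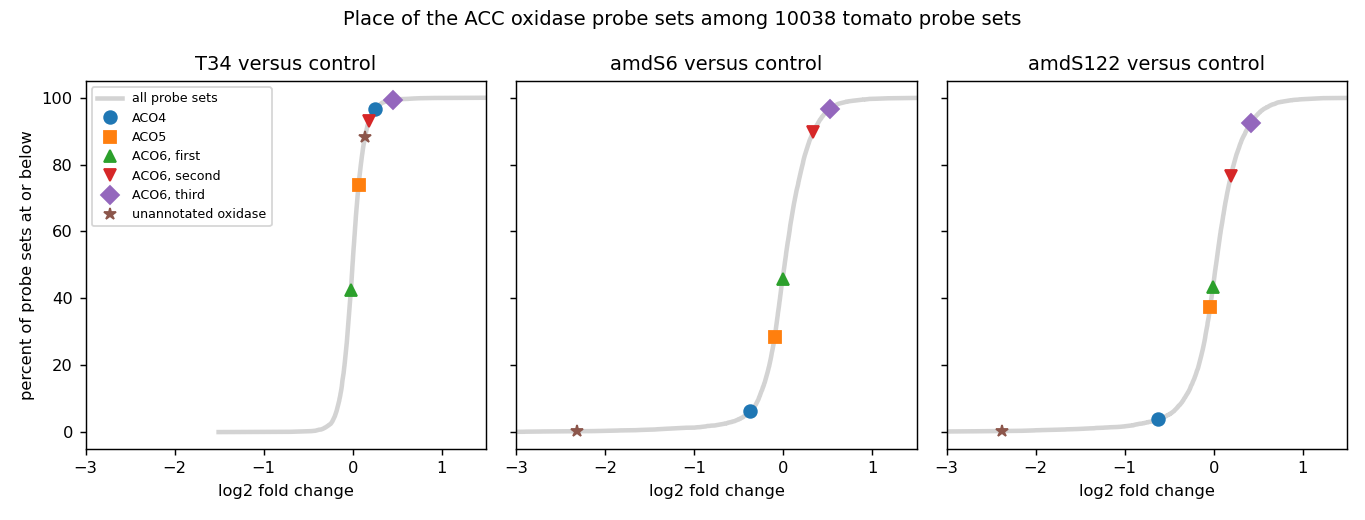
Cumulative share of the 10038 tomato probe sets (percent, y axis) by log2 fold change against control (x axis, drawn from -3 to 1.5), a panel for each strain, with the ACC oxidase probe sets marked on the curve. The unannotated oxidase stands at the far lower end with amdS6 and amdS122, where 26 and 31 probe sets fell more. It was chosen for that fall on these arrays, so its place there is a description. The third ACO6 probe set stands near the upper end with T34, where 66 rose more.

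The rest of the ethylene pathway was read from a list of 47 probe sets in which the family is not included. With T34, 3 of the 47 were higher and 2 lower than control, with a median of 0.001. With amdS6, 12 were higher and 16 lower (median -0.03), and with amdS122 7 were higher and 20 lower (median -0.08), to be read beside the shares of all probe sets given above.

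Upstream of the oxidases, both SAM synthetase probe sets were higher with amdS6 (SAM1 by 0.43, adjusted p = 6.71e-05, and SAM3 by 0.28, adjusted p = 0.000806) and neither passed with T34 or amdS122. Scaled on the spikes, which shifted the median over all probe sets by 0.34 with amdS6, these differences were 0.76 and 0.60. Of the 8 ACC synthase probe sets, ACS1A and ACS6 alone lay above every reporter probe set. ACS1A averaged 7.20 ± 0.0887 (SD, n = 3) in control, 7.21 ± 0.0752 with T34, 6.28 ± 0.124 with amdS6 and 6.11 ± 0.0496 with amdS122. It fell 1.90-fold with amdS6 (log2 difference -0.93, adjusted p = 7.4e-07) and 2.13-fold with amdS122 (-1.09, adjusted p = 1.42e-07), and with T34 the difference was 0.01 (adjusted p = 0.972). Scaled on the spikes, the fall of ACS1A with amdS6 was -0.60. ACS6 was higher with amdS122 (0.22, adjusted p = 0.018), and with T34 and amdS6 its differences of 0.15 and 0.14 did not pass. Among the 6 nearer to background, ACS3 was higher with T34 (0.38, adjusted p = 0.0936), ACS7 (-0.18, adjusted p = 0.0379) and ACS2 (-0.28, adjusted p = 0.0232) lower with amdS6, ACS8 lower with amdS122 (-0.42, adjusted p = 0.000482), and ACS4 and ACS5 passed in no comparison with control.

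Downstream, 3 other probe sets passed 2-fold. PTI5, a factor of the ethylene response factor type that binds the Pto kinase, went from 8.44 ± 0.175 in control to 4.94 ± 0.235 with amdS6 and 5.00 ± 0.206 with amdS122. These means lay below the brightest reporter (5.14), against which the fall was at least 9.88-fold. ER24, an ethylene-responsive coactivator, fell 5.18-fold with amdS6 and 4.02-fold with amdS122 (-2.37 and -2.01), and 1.26-fold with T34 (-0.33, adjusted p = 0.00464). Like the unannotated oxidase, both stand in the study's table of probe sets changed by both transformants, so that these falls are a description. ERF3, another response factor, was lower in 1 of its probe sets with amdS122 (-1.05, 2.07-fold, adjusted p = 5.65e-08) and with amdS6 (-0.40, adjusted p = 0.000215, and -0.08 when scaled on the spikes). Without amdS122 replicate 3 the amdS122 difference was -0.99, under 2-fold. The other ERF3 probe set averaged 3.59 to 3.73 in the groups, below the reporter median, and could not show a fall. Of the 11 response factor probe sets, PTI5 and ERF3 included, 3 were higher and 6 lower with amdS6. With amdS122, 1 of them was higher and 6 were lower, and none passed with T34. Of the 10 ethylene-induced probe sets, 1 was higher and 5 lower with each transformant, and 1 was higher and 1 lower with T34. The 5 lower ones include both probe sets of the gene ER21. Among 16 probe sets for receptors and signalling, in which ER24 is counted again, 6 were up, 2 down and 8 did not pass with amdS6. With amdS122, 4 were up, 7 down and 5 did not pass, and with T34, 1 was up and 1 down. ER24 is among those down with each strain. Over all probe sets the shares higher and lower were 29% and 20.9% with amdS6 and 30% and 22% with amdS122. With T34 these shares were 5.72% and 4.17%.

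**Figure D4:**
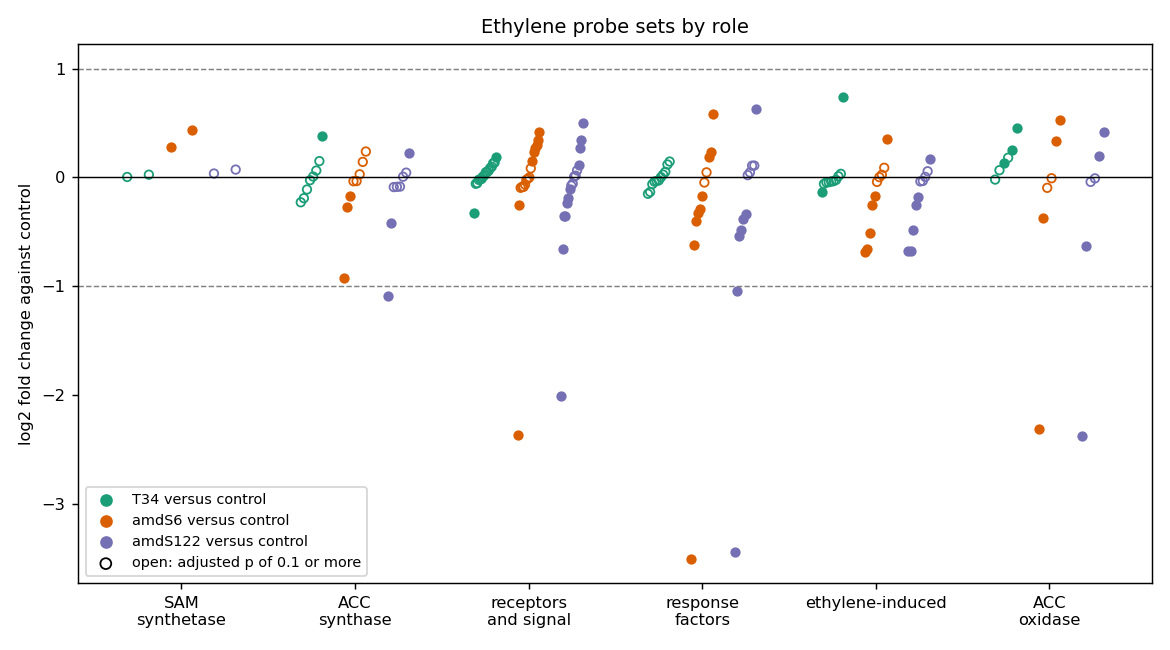
Log2 fold change against control (y axis) of the ethylene probe sets by role, for T34, amdS6 and amdS122, from 3 arrays per group. Each point is a probe set, filled where the adjusted p from limma was under 0.1 and open elsewhere, the dashed lines mark a 2-fold change, and the ACC oxidases stand beside the SAM synthetases, ACC synthases, receptors and signalling genes, response factors and ethylene-induced genes. Past the lower line lie the unannotated oxidase, PTI5, ER24, and, with amdS122, ACS1A and ERF3. The unannotated oxidase, PTI5 and ER24 are in the study's table chosen on these arrays.

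For the 3 members that differed from control by at least 0.5 log2 units in some strain, the named probe sets most alike were found among 904 by the root mean square difference over the 12 arrays, each probe set taken relative to its own control mean. Nearest to ACO4 were ME2, a malic enzyme (0.0908), MTSHP, a small heat shock protein of mitochondria (0.093), and LOC544153 (0.0935). In the order T34, amdS6, amdS122, they differed from control by 0.33, -0.51 and -0.63 for ME2, 0.31, -0.27 and -0.54 for MTSHP, and 0.10, -0.37 and -0.53 for LOC544153. Nearest to the third ACO6 probe set was TSW12, a lipid transfer protein (0.14), with 0.31, 0.54 and 0.52, followed by LOC778266 (0.152) and LOC544312 (0.164). Of all probe sets, 208 lay within 0.2 of ACO4 and 140 within 0.2 of the third ACO6 probe set. The limit of 0.2 is not scaled to the size of a member's change, and such counts depend on that size. The nearest of all carried no gene symbol, at 0.0734 and 0.0856.

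Nearest to the unannotated oxidase were pip1, a secreted cysteine protease of the leaf apoplast (0.217), Wiv-1, a wound-inducible cell wall invertase (0.254), and HT2, a hexose transporter (0.265). In that order of strains the differences from control were 0.07, -2.17 and -2.03 for pip1, 0.23, -2.12 and -1.93 for Wiv-1, and 0.22, -2.71 and -2.65 for HT2. All 3 are also in the study's table chosen on these arrays. Of all probe sets, 1 lay within 0.2 of the unannotated oxidase, at 0.189, and it carried no gene symbol. As the changes of this member are far larger, the count cannot be compared with those for ACO4 and ACO6.

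**Figure D5:**
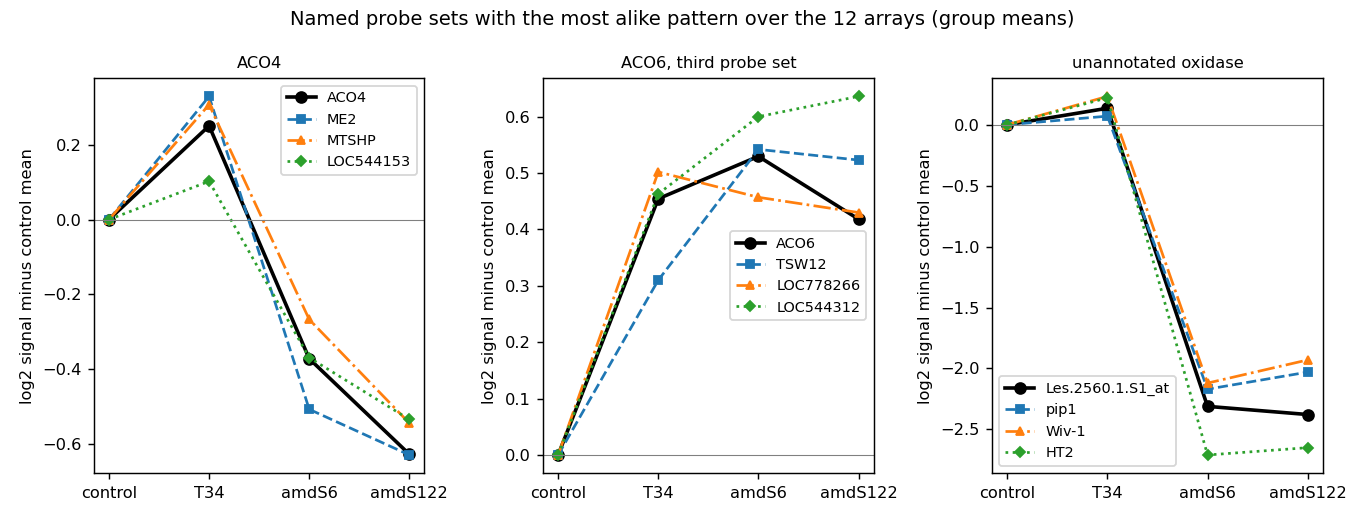
Group means of log2 signal minus the control mean (y axis) in the 4 groups (x axis) for 3 ACC oxidase probe sets, a panel each, and the 3 named probe sets most alike to each. Lines join the means of 3 arrays, and the falls of the unannotated oxidase, pip1, Wiv-1 and HT2 with both transformants are all larger than 1.9 log2 units.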

How the data were processed

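RNA of aerial parts was amplified, labelled and hybridised to 12 arrays. The authors deposited log2 signals from RMA, which corrects for background, makes the distributions of the arrays equal (quantile normalization) and sums up the probes of each set. RMA was run in Affymetrix Expression Console, and the versions are not given in the sources used here. They were used as deposited. Because quantile normalization sets the distribution of every array alike, changes are relative to the other probe sets. Of 10209 features, 108 control and 63 reporter probe sets were left out of the tests. The annotation gave 909 probe sets 1 gene symbol and 9129 none.

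The fit (limma 3.58.1, R 4.3.3) took all 12 arrays with a mean for each group, and its variances were moderated with 3.69 prior and 8 residual degrees of freedom. Benjamini-Hochberg adjustment ran over 10038 probe sets in each comparison, with a limit of 0.1 on the adjusted p, and a 2-fold limit was counted apart. Titles call the arrays biological replicates, and their number limits the precision. An exact permutation test of 3 against 3 arrays cannot go below p = 0.1 and was not used. The fit was tested on simulated data. All members were named, and of the ethylene list each ACC synthase and each probe set past 2-fold. Members, lists and limits were chosen with earlier results of these data known. Alternatives were array centring, further quantile normalization, scaling on 27 spike probe sets, a filter on low signal, array weights, a variance trend, a fit of the compared groups only, a covariate for RNA quality, a replicate block, an adjusted p limit of 0.05 and the removal of each array.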

Additional observations from a re-analysis of the deposited data

Results flagged for a closer look

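ACO4 and the unannotated oxidase moved in opposite directions against control with T34 and with the transformants, and the strains were therefore set against each other directly. ACO4 differed from T34 by -0.62 log2 units with amdS6 and by -0.88 with amdS122 (limma adjusted p = 1.72e-07 and 5.61e-09). In all 3 arrays per group, T34 lay above control and both transformants below it. No pair of groups overlapped, as held for 5.25% of all probe sets. Scaled on the spikes, neither the rise with T34 (adjusted p = 0.501) nor the fall with amdS6 (-0.05, adjusted p = 0.772) passed. The unannotated oxidase differed from T34 by -2.45 with amdS6 and by -2.51 with amdS122, given without a test because it had been chosen for its fall with the transformants. Its rise with T34 (0.14) was small, and that call was lost without any 1 of the compared arrays.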

How the results depend on the processing

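The array number, 3 per group, and signals near background (ACO5, most ACC synthases) limit what could be seen. Of the recomputed values other than the counts of members, 611 kept their side of the threshold under the alternatives. Of the rest, 19 moved, 2 reversed, 15 came to pass and 19 no longer passed. The 2 do not cover every change of sign among values that never passed. For ACO5, the amdS6 difference from control was -0.09665, reached 0.2289 in an alternative and passed in none. Scaling on the spikes shifted the median of all probe sets by 0.08 (T34), 0.34 (amdS6) and 0.053 (amdS122), and by -0.28 for amdS122 minus amdS6. The members called fell from 3 to 1 for T34 against control. They rose from 2 to 4 for amdS6 against T34 and from 1 to 5 for amdS122 against amdS6. These member counts and those below include the unannotated oxidase. The shares of all probe sets called under each setting are not given, so the counts are not read as results about the family. With the same scaling, the first ACO6 probe set reversed for amdS6 against control (0.317, adjusted p = 0.0449). With the 3′ minus 5′ covariate, 2 of 4 members stayed called for amdS122 against control, and the second ACO6 probe set reversed there (-0.002027). Without 1 array at a time, members called fell from 3 to 2 for T34 against control at every removal and ranged from 3 to 4 for amdS122 against control, from 2 to 4 for amdS6 against T34 (4 without T34 replicate 3) and from 1 to 2 for amdS122 against amdS6 (2 without amdS6 replicate 3). Counts past 2-fold did not change in any alternative run. The 30th percentile filter removed ACO5, which has no value there.

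Replicate numbers are shared by the groups, and no source used here says what a number stands for on the arrays. In deviations from the group means, 10 of 18 pairs of same-numbered arrays correlated above 0.1 and 9 of 12 arrays correlated best with their own number. The mean correlation was 0.166, 0.0598 and 0.299 within numbers, a hint from the data of a shared source. The mean of -0.087 between numbers adds nothing to it, since the deviations cancel within each group and tie this mean to the others. With the replicate number as a block, the counts of members called were unchanged in each comparison, and ACO4 kept adjusted p = 0.00475, 4.44e-05 and 8.72e-07 for T34, amdS6 and amdS122 against control.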
